A study of Homo sapiens with 2 samples.

Results

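The aldehyde dehydrogenase (ALDH) family genes ALDH1A1, ALDH1A3, ALDH1B1, ALDH2, ALDH3A1, ALDH3A2, ALDH3B1, ALDH7A1, ALDH9A1 and ALDH18A1 were examined in cells labelled HT-29, a human colorectal cancer line, grown as monolayer or as spheroids. Every probe set that the platform annotation assigns to 1 of these 10 genes was taken, which gave 19 of the 54675 probe sets on the array and 10 of the 19775 genes named by them. Monolayer cells were kept on tissue culture plates in DMEM/F-12 with 10% fetal bovine serum. Spheroids were made from these cells on low adhesion plates in stem cell media, for which B27, epidermal growth factor and fibroblast growth factor are listed in place of serum, and were harvested on day 5. Growth form, plate and medium therefore differed together and cannot be told apart. The study's methods describe duplicate arrays, but 1 Affymetrix U133 Plus 2.0 array of each culture was analysed here. With 1 array per condition there is no error between replicates, and none of the differences was tested.

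ALDH enzymes oxidise aldehydes to carboxylic acids with NAD+ or NADP+. ALDH1A enzymes make retinoic acid from retinaldehyde, others clear acetaldehyde, fatty aldehydes and the products of lipid peroxidation, and others belong to amino acid and choline metabolism. ALDH activity, read by a fluorescent substrate in living cells, is a common assay for stem-like cells of the colon and of colon cancer, and ALDH1A1 and ALDH1A3 are the isoforms most often credited with it. The arrays measure mRNA and not this activity.

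The values are MAS5 signals, an intensity on a linear scale. A signal was called above the floor when it exceeded 62.7, the median of all signals of both arrays. A stricter limit was taken from 135 probe sets of olfactory receptors, which few tissues outside the nose are known to use, whose 95th percentile was 89.2. The brightest probe set by mean log2 signal stood for each gene. Log2 differences are spheroid minus monolayer. Signals of different probe sets cannot be ranked as amounts of mRNA, since probes differ in how strongly they bind.

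The identity of the cells was checked against markers. Epithelial genes were bright in both cultures, with signals of EPCAM of 21151 and 22299, of KRT18 of 29713 and 22627 and of CDH1 of 4544 and 6059 in monolayer and spheroids. Markers that define intestinal epithelium were low. CDX1, LGALS4 and CDH17 were below the floor on both arrays, and CDX2, CEACAM5 and VIL1 were above it on 1 array only, with a highest signal of 105.5. KRT20, a keratin of differentiated colon cells, went from 99.6 to 218.4, 2.19-fold higher in spheroids. Thus 6 of the 12 markers were above the floor on both arrays, where 58.4% of all named genes were. The summed signal of the 12 was 86222 in monolayer and 76155 in spheroids, most of it from EPCAM, KRT8, KRT18 and KRT19. Of 17 genes that mark blood, stromal, endothelial, muscle, neural or liver cells 10 were below the floor on both arrays, and the summed signal was 2853 and 3188. COL1A1, MBP and PECAM1, 3 of the 17, were above the floor on both, beside 58.4% of all named genes. COL1A1 was at 1370 and 1972 by its brightest probe set. Cultured HT-29 cells are known for clear expression of CDX1, CDH17, LGALS4, CEACAM5 and ALDH1A1, so these signals go against the HT-29 label on both arrays. Whether the cells were HT-29 was not tested, and HT-29 is used below as the name the labels give. The part of these markers in the ALDH differences was also not tested.

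ALDH1A3 was the family member whose signal differed most between the cultures, while ALDH1A1 was below the floor on both arrays. The 250 bases before the annotated start of both genes (RefSeq, GRCh38.p14) are shown because these retinaldehyde dehydrogenases differed most in whether and how they were detected. Capitals mark the motifs that were searched on both strands. The first was the TATA box, spelled TATAAA. The second was the CCAAT box, by those letters. The others were the GC box, spelled GGGCGG, and the core that the aryl hydrocarbon receptor binds, spelled GCGTG.
ALDH1A3, chr15:100879581-100879830, plus strand: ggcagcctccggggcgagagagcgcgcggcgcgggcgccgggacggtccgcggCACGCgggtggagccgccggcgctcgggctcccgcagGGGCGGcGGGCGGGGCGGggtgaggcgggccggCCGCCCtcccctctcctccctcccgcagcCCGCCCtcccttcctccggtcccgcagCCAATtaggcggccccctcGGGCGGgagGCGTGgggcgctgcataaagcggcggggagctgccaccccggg
ALDH1A1, chr9:72953054-72953303, minus strand: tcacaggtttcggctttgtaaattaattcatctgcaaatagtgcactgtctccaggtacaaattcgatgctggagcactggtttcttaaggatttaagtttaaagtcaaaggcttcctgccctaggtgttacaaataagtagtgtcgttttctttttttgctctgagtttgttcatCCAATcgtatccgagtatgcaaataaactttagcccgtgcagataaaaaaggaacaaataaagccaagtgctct
The ALDH1A3 window held 6 GC boxes, of which a neighbouring pair overlaps by 1 base, with 1 CCAAT box and 2 matches to the receptor core. The ALDH1A1 window held 1 CCAAT box and 0 of the others. Its GC content was 38.4% against 82.4% for ALDH1A3, and the median over 35116 such windows of all genes was 58%. Among all windows 42.6% held a GC box, 32.0% a CCAAT box, 32.2% the receptor core and 10.7% a TATA box. Promoters of 8 of the 10 genes were listed, in 10 windows, of which 6 held a GC box, 5 a CCAAT box, 2 the receptor core and 0 a TATA box. These matches describe the letters in the windows and were not linked to the signals.

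Expression was detected for 8 of the 10 genes. These 8, all but ALDH1A1 and ALDH3A1, were above the floor on both arrays, where 58.4% of all named genes were. ALDH1A1, the cytosolic retinaldehyde dehydrogenase, has 1 probe set, read at 18.7 in monolayer and at 29.1 in spheroids. These signals lay at the 50.4th and 63.0th percentile of the olfactory receptor probe sets on the same arrays. ALDH3A1, which oxidises medium-chain and aromatic aldehydes and is abundant in cornea and stomach, also has 1 probe set, with signals of 51.7 and 26.0. They lay at the 85.9th and 60.0th percentile of the olfactory receptors. Both genes were thus within the range of probe sets taken as background in either culture, and no fold was computed for them. Of the 19 probe sets 15 exceeded the floor in both cultures, and 15 exceeded the olfactory receptor limit in both. The shares of all probe sets that did so are not given here, so these counts only describe the members.

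**Figure D1:**
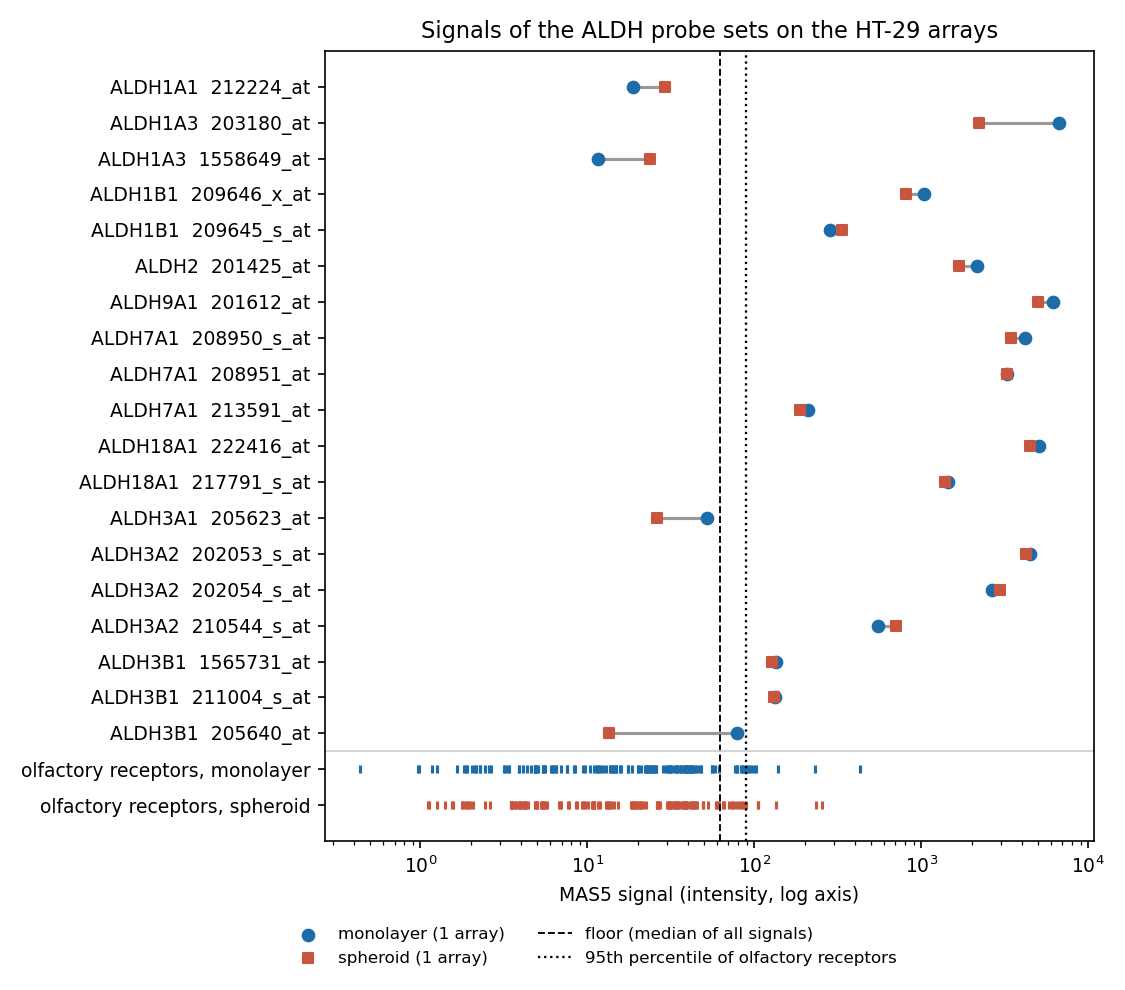
MAS5 signal (log axis) of each of the 19 ALDH probe sets on the array labelled HT-29 monolayer (blue circles) and the spheroid array (red squares), 1 array per condition, with 135 olfactory receptor probe sets as ticks at the bottom. The dashed line is the floor of 62.7 and the dotted line the olfactory receptor limit of 89.2. ALDH1A1 and ALDH3A1 lie left of both lines on both arrays, and the brightest ALDH1A3 probe set has the widest gap among probe sets right of the lines.

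ALDH1A3, which makes retinoic acid from retinaldehyde, was read at 6652 on the monolayer array and at 2221 on the spheroid array. The monolayer signal was the higher by 2.995-fold, a log2 difference of -1.58. Of the 8 measured members 1, ALDH1A3, was at least 2-fold lower in spheroids, against 3.08% of the 13183 genes measured, and 0 were at least 2-fold higher, against 2.53%. ALDH1A3 stood at place 61 from the lowest difference among all measured genes. Many of these genes are dim. Among 4900 genes with a signal of 1000 or more on both arrays, ALDH1A3 stood at place 3 from the lowest, and 0.408% of them were at least 2-fold lower. This cut leaves out genes that fell below 1000 in spheroids. It therefore lowers that share and moves the genes that remain nearer to the lowest place. The ALDH1A3 difference also exceeded the SD of 0.41 between probe sets of one gene, taken over 5506 genes, which is not an error between cultures. The other ALDH1A3 probe set was below the floor on both arrays, at 11.6 and 23.8, so that 1 probe set carries the difference. In RNA of a whole culture, fewer cells with ALDH1A3 and less ALDH1A3 RNA per cell cannot be told apart.

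**Figure D2:**
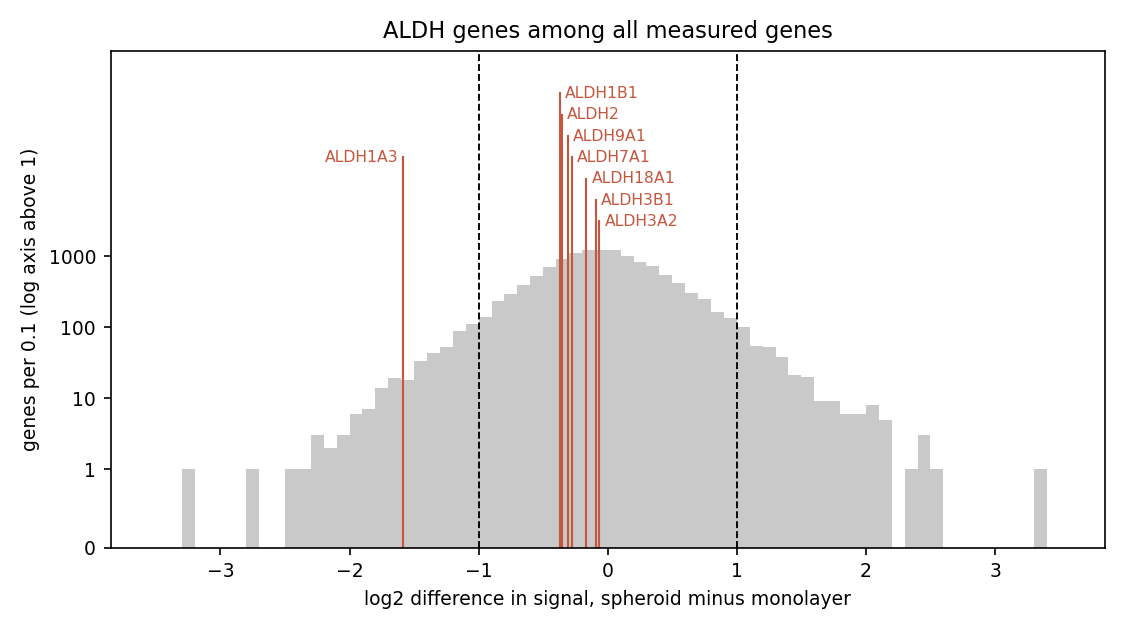
Number of genes (log axis above 1) by spheroid minus monolayer log2 signal in HT-29 cells, for 13183 measured genes in bins of 0.1. Red lines place the 8 measured ALDH genes and their height carries no value, and dashed lines mark 2-fold differences. ALDH1A3 stands alone beyond the left dashed line at -1.58, and the other 7 lie between -0.37 and -0.07.

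The mitochondrial enzymes ALDH2 and ALDH1B1 differed by less than 2-fold, and by less than the SD between probe sets of one gene. ALDH2, the mitochondrial enzyme that clears acetaldehyde, went from 2150 to 1678 by its 1 probe set, which is -0.36 in log2. ALDH1B1, a mitochondrial relative of ALDH2 that is known as a marker of colon progenitor cells and colon cancer, had signals of 1045 and 808.4 by its brightest probe set, a log2 difference of -0.37. Its other probe set went the other way, from 284.6 to 335.3, a difference of 0.24. The direction for ALDH1B1 therefore depends on the probe set, and the brighter of them carries the suffix x_at, which Affymetrix gives to probe sets that may bind other transcripts.

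Enzymes of amino acid, choline and carnitine metabolism were well above the floor in both cultures, and their differences were under 2-fold and smaller than the SD between probe sets of one gene. ALDH9A1, which acts on trimethylaminobutyraldehyde in carnitine synthesis, had signals of 6188 and 4989, a log2 difference of -0.31. ALDH7A1, or antiquitin, which acts in lysine breakdown and also oxidises betaine aldehyde, went from 4188 to 3449 by its brightest probe set, a difference of -0.28. Its other probe sets were at -0.01 and -0.15, so that 1 of the 3 hardly differed between the cultures. ALDH18A1, the bifunctional enzyme that starts proline synthesis from glutamate, was at -0.16, with signals of 5051 and 4507. Its other probe set was at -0.05, and with the arrays scaled to hybridisation spike-ins ALDH18A1 was at 0.08.

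Among the ALDH3 enzymes, ALDH3A2, the microsomal fatty aldehyde dehydrogenase that is lost in Sjögren-Larsson syndrome, had signals of 4466 and 4269 by its brightest probe set, a log2 difference of -0.07. Its other probe sets were higher in spheroids, at 0.14 and 0.35, with signals of 2661 and 2942 and of 550.0 and 702.1. ALDH3B1, which oxidises medium- and long-chain fatty aldehydes, was dim. The pair of ALDH3B1 probe sets that exceeded the floor in both cultures had signals of 135.6 and 127.3 and of 132.3 and 130.4 in monolayer and spheroids, and log2 differences of -0.09 and -0.02. These signals were at the 97.8th percentile of the olfactory receptors, so ALDH3B1 stood above the background only narrowly. A dimmer ALDH3B1 probe set went from 78.5 in monolayer to 13.4 in spheroids, below the floor, a difference of at least 1.25-fold whose monolayer signal was under the olfactory receptor limit.

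Other than ALDH1A3, the 7 measured members had log2 differences from -0.37 to -0.07, each smaller in size than the SD of 0.41 between probe sets of one gene. The median over the 8 measured members was -0.30, and over all measured genes -0.05. All 8 were under 0 by their brightest probe set, as were 54.8% of all measured genes. By single probe sets, 12 of the 15 measured in both cultures were under 0 and 3 were over 0. The matching share of all probe sets is not given here, so these counts describe the members only. The sign of the small differences depends on the scaling. The 18 probe sets of the hybridisation spike-ins all read lower for spheroids, with a mean log2 difference of -0.25. With the arrays scaled to these spike-ins the median of all genes moved to 0.18 and 5 of the 8 members stayed under 0, with ALDH18A1, ALDH3A2 and ALDH3B1 above it. ALDH1A3 was at -1.34 on that scale. The 24 probe sets of the labelling spike-ins also all read lower for spheroids, with a mean of -0.42, a shift larger than the difference of any member other than ALDH1A3. Scaling to them, an alternative chosen after seeing the data, moved the median of all genes to 0.34 and put all 7 of these members above 0, from 0.05 for ALDH1B1 to 0.36 for ALDH3A2. ALDH1A3 was then at -1.16, still the 1 member at least 2-fold lower. No direction can thus be given for the 7.

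**Figure D3:**
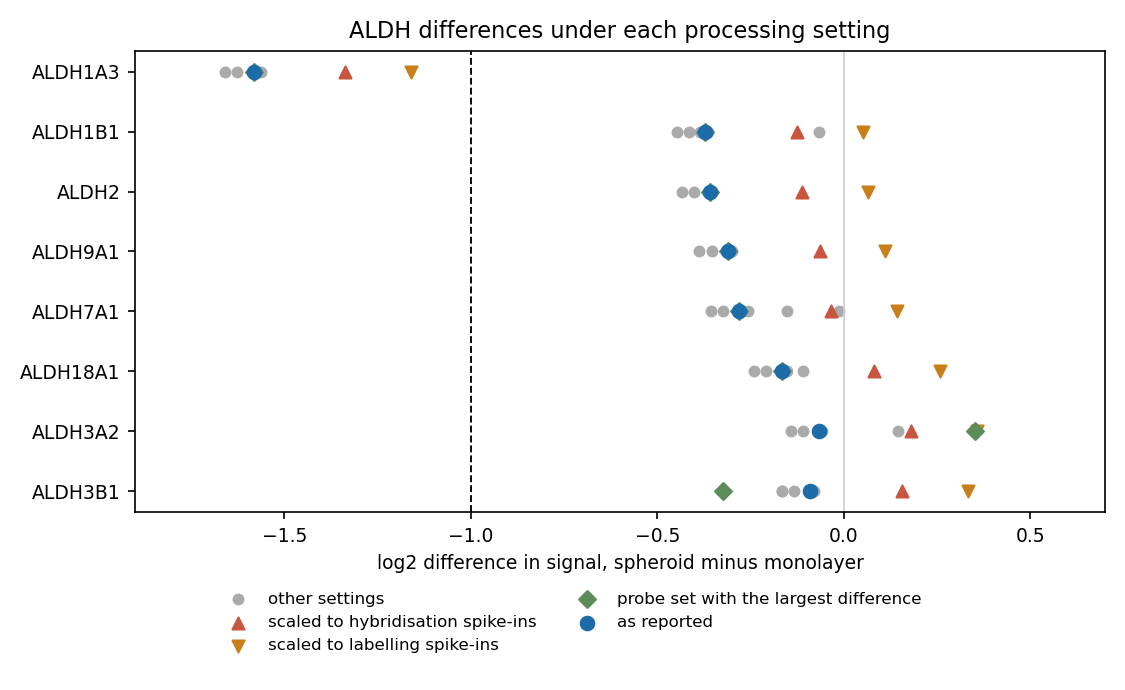
Spheroid minus monolayer log2 signal in HT-29 cells for the 8 measured ALDH genes as reported (blue) and under the other processing settings, with scaling to hybridisation spike-ins (red triangles), scaling to labelling spike-ins (orange triangles pointing down) and the probe set of the largest difference (green diamonds) set apart. The dashed line marks a 2-fold difference. ALDH1A3 stays left of the dashed line in every setting drawn, from -1.66 to -1.16, and the other genes stay right of it and lie above 0 when scaled to labelling spike-ins.

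None of the other 9 ALDH genes listed here was at least 2-fold higher or lower by its brightest probe set. Among all measured genes 2.53% were higher and 3.08% lower by that much. Of the 9, 8 were above the floor on 1 or both arrays, 6 of them on both, as were 58.4% of all named genes. Of these 8, 6 were under 0, 1 of them by a bound, beside 54.8% of all measured genes. ALDH16A1, which lacks the catalytic cysteine in mammals, had signals of 239.0 and 121.3, a log2 difference of -0.98. ALDH1L1, the cytosolic 10-formyltetrahydrofolate dehydrogenase of folate metabolism, was at -0.88, with signals of 164.4 and 89.1, and its other probe set was at -1.18. The ALDH1L1 spheroid signals, 89.1 and 65.1, were both under the olfactory receptor limit of 89.2. ALDH6A1, the methylmalonate semialdehyde dehydrogenase of valine breakdown, went from 1074 to 713.3 by its brightest probe set, a difference of -0.59. Of its further probe sets, those measured in both cultures disagreed, at -0.78 and 0.08. ALDH4A1, which completes proline breakdown, was at -0.58.
ALDH5A1, the succinate semialdehyde dehydrogenase of GABA breakdown, was at -0.20 by its brightest probe set, with signals of 1119 and 976.5. By the other it was at -1.44, with signals of 222.2 and 82.0, the latter under the olfactory receptor limit. Among the 6 genes above the floor on both arrays, only ALDH8A1 had a difference above 0, at 0.29 with signals of 162.5 and 198.2. ALDH1A2, the third retinaldehyde dehydrogenase, was listed at 7.57 in monolayer and 65.3 in spheroids, just above the floor and under the olfactory receptor limit. Its difference was also above 0, by a bound of 0.06. ALDH1A3 was thus the only ALDH1A gene that exceeded the olfactory receptor limit on either array. ALDH1L2, the mitochondrial counterpart of ALDH1L1, was above the floor in monolayer only, at 71.6, and ALDH3B2 on neither array. The median of the 8 was -0.39, beside -0.05 for all measured genes.

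The genes that handle retinol and retinoic acid before and after the ALDH1A step differed in direction among themselves. Of 12 measured genes of this list 9 were above 0, where 45.2% of all measured genes were. Among the 9, STRA6 and RBP4 were above the floor in spheroids only, at 76.2 and 81.3, so their differences are bounds. Both stayed under the olfactory receptor limit. Of the 12, 1 was at least 2-fold higher and 0 were at least 2-fold lower, beside 2.53% and 3.08% of all measured genes. The median log2 difference was 0.16, against -0.05 for all measured genes. RDH5, a retinol dehydrogenase, was 2.46-fold higher in spheroids, but its monolayer signal of 79.4 was under the olfactory receptor limit and its spheroid signal was 195.4. LRAT, which esterifies retinol for storage, went from 77.3 to 132.2. RDH10 and RDH11, which interconvert retinol and retinaldehyde, had signals of 1339 and 1351 and of 6348 and 9052, log2 differences of 0.01 and 0.51. Other RDH10 probe sets were at -0.11 and -0.33. CYP26B1, which degrades retinoic acid, was 1.83-fold lower, with signals of 613.5 and 335.9. CYP26A1 of the same list was below the floor on both arrays, at 36.5 and 53.1. DHRS3, a retinaldehyde reductase, was 1.54-fold lower, with signals of 410.5 and 267.2. CRABP2, which carries retinoic acid to its receptor, was at 0.12.

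Of 7 genes that the aryl hydrocarbon receptor is known to induce, as it does ALDH3A1 in other tissues, 5 were measured. Of these 5, 2 were at least 2-fold higher in spheroids, beside 2.53% of all measured genes. The list was chosen with earlier results of these data known, so this comparison is not independent of them. AHRR, the repressor of that receptor, had signals of 316.7 and 910.3, a log2 difference of 1.52. TIPARP, a mono-ADP-ribosyltransferase, went from 2766 to 6512, a difference of 1.23. CYP1B1 was at 0.95 by its brightest probe set, with others at 1.01 and 0.42. CYP1A2 was at 0.82 by 1 probe set of the x_at kind, and its other probe set was below the floor on both arrays, at 35.8 and 12.7. NQO1, a quinone reductase, had signals of 17316 and 17277. The median of the 5 was 0.95, against -0.05 for all measured genes. ALDH3A1 was below the floor on both arrays, and so were CYP1A1 and UGT1A6 of the same list.

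Enzymes that make aldehydes or reduce them were under a 2-fold difference by their brightest probe sets. Of 7 alcohol dehydrogenases 2 were above the floor on both arrays, where 58.4% of all named genes were. These were ADH5, which also handles formaldehyde, at 0.07 and ADH4 at -0.84 by 1 of its 4 probe sets. That ADH4 probe set is of the x_at kind, with signals of 152.1 and 84.8, the latter under the olfactory receptor limit. The other ADH4 probe sets were below the floor on both arrays. Of 10 measured aldehyde and carbonyl reductases 0 were at least 2-fold higher or lower by the brightest probe set. Over all measured genes 2.53% were higher and 3.08% lower by that much. The median of the 10 was -0.34, against -0.05 for all measured genes. CBR4, a mitochondrial carbonyl reductase, depended on the choice of probe set. It was at 0.15 by its brightest probe set, with signals of 2285 and 2533, but at 1.19 and 1.04 by the others, with signals of 1142 and 2612 and of 139.6 and 287.2. AKR1C2 and PTGR1, which acts on lipid peroxidation products, were at -0.88 and -0.72 by their brightest probe sets, and AKR1B10, which reduces retinaldehyde, went from 60.5, under the floor, to 103.6. AKR1C1 was at -0.48, and AKR1C genes are near-identical, so their x_at probe sets may share signal. Another AKR1C2 probe set, also of the x_at kind, went from 176.3 in monolayer to below the floor in spheroids, a bound of -1.49 in log2. The last AKR1C2 probe set was below the floor on both arrays.
Around ALDH18A1, 0 of 7 measured genes of proline and glutamate metabolism were at least 2-fold higher or lower. Among all measured genes 2.53% were higher and 3.08% lower by that much. The median of the 7 was -0.06, against -0.05 for all measured genes. ALDH4A1, which is also counted among the other ALDH genes, differed most of the 7, at -0.58. GLUD1, PYCR3 and GLUL were at -0.33, 0.29 and 0.24 by their brightest probe sets. Other GLUL probe sets above the floor were at 0.07 and -0.02. The PYCR3 monolayer signal of 87.7 was under the olfactory receptor limit. Of 9 measured genes that make or use fatty aldehydes 0 were at least 2-fold higher or lower, beside the same shares of all genes. Their median was -0.18. FAR1, a fatty acyl-CoA reductase, was highest at 0.54 by its brightest of 3 probe sets. ACSL4, a long-chain acyl-CoA synthetase, was at 0.16 by its brightest probe set and at 1.12 and at least 1.04 by dimmer ones. SPHK1 was in spheroids below the floor and at least 1.68-fold lower, and HACL1 and ACSL5 were at -0.38 and -0.30, with the other ACSL5 probe set at 0.00.
In the choline and betaine list 1 gene of 6 measured was at least 2-fold higher, beside 2.53% of all measured genes. This was CHDH, the enzyme that makes betaine aldehyde, with signals of 160.6 and 471.7 and a log2 difference of 1.55. Its probe sets disagreed, and others above the floor in both cultures were at 0.08 and -0.68. A further pair was above the floor in spheroids only, with spheroid signals of 162.3 and 99.95, and higher there by at least 1.37 and 0.67 in log2. PEMT was at -0.63. TMLHE was at -0.48 by its brightest probe set and at 0.45 by another, with signals of 217.8 and 296.9, so its direction depends on the probe set. The same holds for AASS, with probe sets at 0.24 and -0.30. The median of the 6 was -0.04, against -0.05 for all measured genes.

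**Figure D4:**
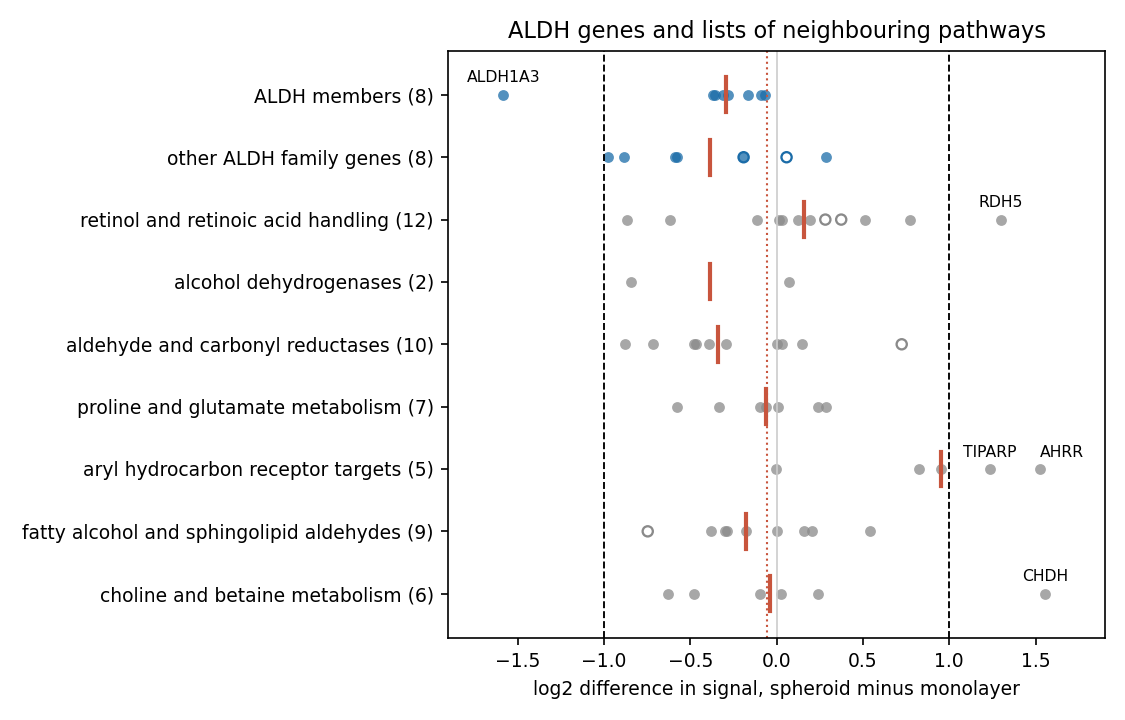
Spheroid minus monolayer log2 signal in HT-29 cells for the ALDH genes (blue) and for lists of neighbouring pathways (grey), with measured genes counted in parentheses. Open circles are genes above the floor on 1 array only, whose difference is a bound, red bars are list medians, the dotted line is the median of all measured genes at -0.05, and dashed lines mark 2-fold differences. ALDH1A3 is the only dot beyond the left dashed line, and RDH5, AHRR, TIPARP and CHDH lie beyond the right one.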

How the data were processed

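Expression was measured in 1 HT-29 monolayer and 1 HT-29 spheroid RNA sample on Affymetrix Human Genome U133 Plus 2.0 arrays. The deposited values are intensities, which the authors computed by the MAS5 method in Affymetrix Expression Console (version not given in the sources used here) and which carry no detection calls. After trimming 2% of probe sets at each end, the mean signal was 500.1 on either array. The methods describe duplicates, but only 1 array per condition was analysed, which limits the precision, and no test was run.

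Probe sets were named through the platform annotation, of which 41097 have 1 gene, 1801 several (not named) and 11777 are not listed, and 41043 were updated to GRCh38.p14 RefSeq symbols. Signals below the floor (50th percentile) were set to it before log2. A gene below it on both arrays has no fold. Genes named are all members, the other ALDH genes and up to 4 genes with the largest difference per list. Further list genes, RDH10, RDH11, STRA6, RBP4, CRABP2, CYP26A1, CBR4, ACSL4, NQO1, CYP1A1, UGT1A6 and some markers were named after their values were seen. Members and lists were chosen with earlier results of these data known. A 2-fold threshold was used, after the study's methods. Computation used Python 3.11.15, numpy 2.4.6, pandas 2.3.3 and matplotlib 3.10.9, and was tested on simulated data. The first 12 alternatives were 4 scalings, 3 floors, a pseudocount of 15.9, 3 choices of probe set and a 3-fold threshold. Scaling to labelling spike-ins was added after seeing the data.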

Additional observations from a re-analysis of the deposited data

How the results depend on the processing

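Of 13 alternative settings, of which scaling to labelling spike-ins was chosen after seeing the data, all but a 3-fold threshold left ALDH1A3 at least 2-fold lower and as the only such member. With a 3-fold threshold the number of members past it was 0, since ALDH1A3 was 2.995-fold lower. No member was at least 2-fold higher in any setting. The median of the members ranged from -0.37 to 0.13, the highest with labelling spike-ins. The number above the floor on both arrays ranged from 6 to 8, the lowest without x_at and s_at probe sets. ALDH1B1 and ALDH3A2 have only such probe sets, so they were left out of that setting and did not fall below the floor. Taking the most different probe set moved ALDH3A2 to 0.35. The alcohol dehydrogenase median was 0.072 at the 75th percentile floor and 0.34 without x_at and s_at probe sets, with 1 gene left in each. The aryl hydrocarbon receptor targets were at 1.38 in the latter, where only AHRR and TIPARP, the highest of the list, were left measured. Scaling to labelling spike-ins moved the median of all measured genes to 0.34. The list medians were then 0.037 for alcohol dehydrogenases, 0.081 for reductases and 1.37 for aryl hydrocarbon receptor targets. They were 0.25 for fatty aldehyde genes, 0.38 for choline and betaine genes and 0.32 for proline and glutamate genes. For retinol and retinoic acid handling the median was 0.51, and for the other ALDH genes -0.07. On that scale 1163 genes were at least 2-fold higher and 115 lower (91.0% higher). Over all genes, scaling to hybridisation spike-ins gave 700 higher and 189 lower against 334 and 406 as reported, so that 78.7% in place of 45.1% of those past 2-fold were higher, and equal medians gave 34.0%. Genes past 2-fold numbered 2476 higher and 2502 lower without a floor, 1319 and 1397 with the pseudocount, 791 and 716 when the most different probe set stood for a gene, and 100 and 74 at the 75th percentile floor. No paired analysis was possible because each condition has 1 array. Signals near the floor, as for ALDH3B1, ALDH1L1, ADH4, RDH5 and LRAT, limit what their differences show.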

Other observations

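Antisense genes at ALDH loci were also on the array. ALDH1A2-AS1 had signals of 25.9 in monolayer and 8.11 in spheroids, both below the floor. ALDH1L1-AS2 had signals of 60.9 and 85.6, above the floor in spheroids only and under the olfactory receptor limit on both arrays.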
